A study of Mus musculus with 32 samples.

Results

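LSK cells from mice treated with ruxolitinib for 7 days were compared with LSK cells from vehicle-treated mice whose labels carry the letter c (batch C here). The titles of the ruxolitinib libraries carry no batch letter, so the labels do not place them in batch C. The comparison takes 5 of the 32 libraries of the series, namely 3 ruxolitinib libraries and the 2 LSK vehicle libraries of batch C. They were chosen by cell type, treatment and the letter of the vehicle libraries in the sample labels. LSK cells are lineage negative, Sca1 positive and Kit positive, and hold the blood stem cells and multipotent progenitors of the bone marrow. All 5 libraries carry the genotype Jak2v617f, the activating Jak2 allele found in myeloproliferative neoplasms. Per the labels' protocols, Dre mRNA switched the allele on ex vivo before transplantation, and the sorted cells come from the lethally irradiated mice that received the graft. The vehicle libraries are labelled day 0 and the ruxolitinib libraries day 7, and treatment and time cannot be told apart. The other LSK libraries are 4 vehicle libraries of batch A and 3 and 4 libraries at days 3 and 7 of tamoxifen, which activates Cre to delete the mutant allele. The remaining 16 libraries are of MEP cells, the megakaryocyte-erythroid progenitors, of which 3 ruxolitinib and 3 batch C vehicle libraries are used below.

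Ruxolitinib is a small molecule that blocks the kinase activity of JAK1 and JAK2. Cytokine receptors without a kinase of their own pass their signal through these enzymes to STAT transcription factors: erythropoietin acts largely through JAK2 and STAT5, whereas type I interferons act through JAK1 and TYK2, and interferon gamma through JAK1 and JAK2. Genes such as Cish and Socs2 are classic STAT5 targets, and genes such as Irf7, Usp18 and the Oas and Ifit families are classic interferon-stimulated genes.

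A set of promoters are printed here because the genes behind them carry the results below: Irf7, Slfn2 and Serpina3f were called lower under ruxolitinib, and Tgtp1, Ifit1 and Cish stand for the interferon gamma, type I interferon and STAT5 lists. Each runs 5′ to 3′ on the gene's strand from 250 bases before to 30 bases after the transcript start given by RefSeq on GRCm38.p6. Capitals mark the STAT motif TTCNNNGAA or the interferon motif, which is GAAA, any 2 bases and GAAA again, searched on both strands. The windows are Irf7 at chr7:141266395-141266674 (minus strand), Slfn2 at chr11:83064862-83065141 (plus), Serpina3f at chr12:104214294-104214573 (plus, the first of the starts listed), Tgtp1 at chr11:48992217-48992496 (minus), Ifit1 at chr19:34640639-34640918 (plus) and Cish at chr9:107296409-107296688 (plus).
Irf7: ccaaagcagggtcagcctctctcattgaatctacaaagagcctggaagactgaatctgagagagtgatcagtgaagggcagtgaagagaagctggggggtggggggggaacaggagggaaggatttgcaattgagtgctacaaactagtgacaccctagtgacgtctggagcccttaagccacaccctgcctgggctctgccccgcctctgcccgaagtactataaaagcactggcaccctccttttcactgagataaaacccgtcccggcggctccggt
Slfn2: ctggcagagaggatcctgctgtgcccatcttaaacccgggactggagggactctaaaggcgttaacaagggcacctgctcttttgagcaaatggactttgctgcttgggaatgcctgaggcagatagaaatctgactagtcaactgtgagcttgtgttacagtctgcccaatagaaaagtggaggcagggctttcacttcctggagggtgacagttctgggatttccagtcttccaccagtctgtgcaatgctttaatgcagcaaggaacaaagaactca
Serpina3f: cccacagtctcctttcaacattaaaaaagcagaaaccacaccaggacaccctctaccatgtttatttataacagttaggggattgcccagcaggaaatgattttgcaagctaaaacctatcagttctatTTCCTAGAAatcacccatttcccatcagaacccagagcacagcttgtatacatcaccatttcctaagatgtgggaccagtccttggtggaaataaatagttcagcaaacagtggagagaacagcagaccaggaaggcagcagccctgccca
Tgtp1: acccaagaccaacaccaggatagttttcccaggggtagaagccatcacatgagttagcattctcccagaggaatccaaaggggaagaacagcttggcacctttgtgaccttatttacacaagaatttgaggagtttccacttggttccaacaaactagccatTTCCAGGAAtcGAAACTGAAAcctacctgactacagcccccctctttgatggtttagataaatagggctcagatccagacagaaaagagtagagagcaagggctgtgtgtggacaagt
Ifit1: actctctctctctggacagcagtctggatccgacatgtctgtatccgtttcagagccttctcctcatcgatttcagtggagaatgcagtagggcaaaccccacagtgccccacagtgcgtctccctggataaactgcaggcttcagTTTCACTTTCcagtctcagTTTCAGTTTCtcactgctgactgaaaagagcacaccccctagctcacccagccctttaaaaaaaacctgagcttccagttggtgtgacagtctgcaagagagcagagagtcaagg
Cish: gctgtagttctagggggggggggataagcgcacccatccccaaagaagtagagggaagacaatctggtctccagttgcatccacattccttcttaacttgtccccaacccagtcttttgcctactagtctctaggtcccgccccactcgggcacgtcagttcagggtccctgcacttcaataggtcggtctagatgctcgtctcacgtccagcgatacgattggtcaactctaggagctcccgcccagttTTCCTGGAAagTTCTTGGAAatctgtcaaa
The STAT motif was found once in the Serpina3f window, as TTCCTAGAA. In the Tgtp1 window, TTCCAGGAA was followed by the interferon match GAAACTGAAA, with first bases 88 and 77 bases before the start. The Ifit1 window held TTTCACTTTC and TTTCAGTTTC, both interferon matches on the opposite strand, and the Cish window held TTCCTGGAA and TTCTTGGAA within the first bases of the transcript. No match was found in the Irf7 and Slfn2 windows. Over all 27025 genes with a promoter in the table, 9.04% held the STAT motif and 3.8% the interferon motif. The interferon motif was found in 13 of the 34 type I interferon-stimulated genes with a promoter in the table (38.2%) and in 13 of 29 genes of the interferon gamma list (44.8%). The STAT motif was found in 6 of 25 genes of the STAT5 list (24%) and in 11 of the 29 of the interferon gamma list (37.9%). Among the type I genes, the interferon motif was in 6 of 13 members whose ruxolitinib libraries all lay below both vehicle libraries (46.2%) and in 7 of the 21 others (33.3%).

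Total counts were 28261708 and 39305850 in the vehicle libraries and 49657790, 41360353 and 26511752 in the ruxolitinib libraries. The levels below are CPM, counts scaled to the library total and by TMM factors, listed as vehicle replicates 1 and 2 and then ruxolitinib replicates 1 to 3. The TMM factors were 1.01 and 0.70 and then 0.61, 0.72 and 0.83. Odorant and pheromone receptor genes (symbols starting Olfr or Vmn) held 0.0632% and 0.0158% of counts and then 0.00364%, 0.0164% and 0.0368%. The bearing of these differences on falls among low-count genes was not tested. Of the 11 LSK markers, including Kit, Cd34 and Meis1, none was at 0 in any library, and their summed level was 2189 and 5076 CPM in vehicle and 3802 to 4544 CPM under ruxolitinib. The vehicle libraries stood apart from each other: vehicle 1 held the eosinophil granule genes Prg2 and Epx, chosen after their values were seen, at 5297 and 1806 CPM, against 110.4 and 21.7 CPM in vehicle 2, and vehicle 2 held Pim2, Flt3 and Socs3 at 499.9, 858 and 105 CPM, against 101, 107 and 7.56 CPM in vehicle 1. They carry the numbers 12 and 18, as do 2 vehicle libraries of batch A, where Prg2 was at 4122 and 71.1 CPM and Pim2 at 67.1 and 429 CPM in that order. Their deviations from the group means correlated with those of the same-numbered batch A library at r = 0.54 and 0.67 across the expressed genes, a description with no test, since with 2 libraries the batch C deviations mirror each other. Whether these are the same mice was not tested, and the fit counts all of them as separate libraries. Over the 9802 expressed genes (mean of at least 10 CPM over the 16 LSK libraries), vehicle 2 was higher than vehicle 1 by a median of 0.45 (log2 of CPM plus 1). In these bulk libraries, fewer cells of a type and less RNA per cell cannot be told apart.

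Few genes were called between ruxolitinib and vehicle, with the spread estimated over all 16 LSK libraries. Those that fell were the interferon-inducible genes Slfn2, Rtp4 and Irf7 and the serpin gene Serpina3f. Of 26930 genes tested, edgeR's quasi-likelihood test called 6 at an adjusted p under 0.05 (0.0223%), 2 higher (0.00743%) and 4 lower (0.0149%). The 4 that fell were Slfn2, Rtp4, Serpina3f and Irf7, and the 2 that rose were Plscr2 and the transcript 3830403N18Rik, which was named after its values were seen. At an unadjusted p under 0.05 there were 2402 genes (8.92%), 497 higher (1.85%) and 1905 lower (7.07%), and DESeq2 called 140 of 25154 genes (0.557%), 62 higher (0.246%) and 78 lower (0.31%). Among the 9802 expressed genes 0.0612% were called (0.0204% higher, 0.0408% lower), and 4.68% had an unadjusted p under 0.05 (2.24% higher, 2.44% lower). The median fitted change was -0.25 over all genes tested and 0.15 over the expressed genes (log2). Over the expressed genes it was 0.06 without vehicle 1 and 0.45 without vehicle 2. All 6 genes were also called by DESeq2. Slfn2 and 3830403N18Rik were called with each library left out in turn, whereas the other 4 lost the call without any 1 of the ruxolitinib libraries and without vehicle 2, with adjusted p from 0.063 to 0.28. Without vehicle 1, Plscr2 and Serpina3f lost it too (adjusted p = 0.16 and 0.057). Irf7 also lost it with RLE factors, in the 5 libraries alone and with a replicate block, Rtp4 with that block, and Plscr2 among expressed genes only.

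Jak2, the kinase that carries the mutation and is the drug's target, was at 24.8 and 32.9 CPM in vehicle and at 32.2, 29.5 and 31.1 CPM under ruxolitinib. The groups overlapped, and the fitted log2 change was 0.10 ± 0.29 (SE; adjusted p = 0.912, edgeR). The gene lies at chr19:29251828-29313080 on mm10 (GENCODE M21).

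Slfn2, a Schlafen family gene linked to immune cell quiescence and induced by interferon (chr11:83065112-83070678), was at 66.0 and 62.4 CPM in vehicle and at 8.74, 9.69 and 7.07 CPM under ruxolitinib. The ruxolitinib libraries lay far below both vehicle libraries, 8.50 ± 1.3 (SD, n = 3) against 64.2 ± 2.6 CPM (SD, n = 2), and the log2 change was -2.92 ± 0.34 (SE; adjusted p = 0.00118, edgeR). In the 4 vehicle libraries of batch A, Slfn2 was at 35.3 to 65.9 CPM, and at tamoxifen day 7 at 16.2 to 30.6 CPM, also above all ruxolitinib libraries. In MEP cells Slfn2 stood near the detection limit in both arms, at 0.466 to 1.52 CPM in vehicle and 0.611 to 1.53 CPM under ruxolitinib. The change in LSK minus that in MEP cells was -3.32 ± 0.64 (log2; adjusted p = 0.0165, edgeR). Of its neighbours of the same family, chosen after their values were seen, Slfn8 also lay lower without overlap, at 44.6 and 79.6 CPM in vehicle and 27.3 to 38.5 CPM under ruxolitinib, whereas Slfn9 lay higher, at 139 and 95.1 CPM and then 182 to 232 CPM. Neither passed the test (adjusted p = 0.541 and 0.559, edgeR), and near-identical family members can share reads.

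Serpina3f, a serine protease inhibitor of an expanded mouse cluster (chr12:104214544-104221129), was at 51.4 and 79.1 CPM in vehicle and at 6.95, 3.84 and 7.43 CPM under ruxolitinib. The groups did not overlap, and the log2 change of -3.43 ± 0.53 (SE; adjusted p = 0.0271, edgeR) was the largest among the 4 genes that fell. Serpina3g, its neighbour and a known STAT target in blood cells, was at 977 and 2109 CPM in vehicle and at 748, 497 and 544 CPM under ruxolitinib. It was lower in all 3 libraries but did not pass (log2 change -1.37 ± 0.48, adjusted p = 0.507, edgeR). In MEP cells Serpina3g moved the other way (log2 change 2.03, adjusted p = 0.0055), and the LSK minus MEP difference was -3.42 ± 0.78 (adjusted p = 0.0439, edgeR). At tamoxifen day 7 Serpina3f was at 6.07 to 11.5 CPM, against 25.0 to 136 CPM in batch A vehicle, a log2 change of -2.97 ± 0.43.

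Irf7, the transcription factor that amplifies type I interferon production (chr7:141262706-141266481, minus strand), was at 47.2 and 136 CPM in vehicle and at 15.3, 20.2 and 16.9 CPM under ruxolitinib. Rtp4, an interferon-induced chaperone of G protein-coupled receptors (chr16:23520291-23614222), was at 54.8 and 111 CPM in vehicle and at 17.4, 12.4 and 12.9 CPM under ruxolitinib. In both genes vehicle 2 was over 2 times vehicle 1, and every ruxolitinib library lay below both. The log2 changes were -2.39 ± 0.40 for Irf7 (adjusted p = 0.0498) and -2.54 ± 0.38 for Rtp4 (adjusted p = 0.0263, edgeR). Both lost the call without vehicle 2, where the log2 change was -1.44 for Irf7 (adjusted p = 0.21) and -1.94 for Rtp4 (adjusted p = 0.20). In LSK cells at tamoxifen day 7, Irf7 was at 54.5 to 66.6 CPM and Rtp4 at 58.8 to 87.7 CPM, within the range of batch A vehicle (35.05 to 99.4 and 54.8 to 124 CPM) and above all ruxolitinib libraries. In MEP cells under ruxolitinib both fell, with log2 changes of -2.14 for Irf7 and -3.97 for Rtp4 (adjusted p = 0.000203 and 7.49e-05, edgeR).

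Plscr2, a member of the phospholipid scramblase family (chr9:92275602-92297752), was at 10.1 and 6.26 CPM in vehicle and at 98.7, 93.7 and 90.5 CPM under ruxolitinib. The ruxolitinib libraries were close together and all above both vehicle libraries (log2 change 3.53 ± 0.58, adjusted p = 0.0498, edgeR). No LSK library of the other groups exceeded 24.4 CPM, the highest of tamoxifen day 3. In MEP cells Plscr2 was at 3.17 to 6.58 CPM in vehicle and 10.7 to 11.4 CPM under ruxolitinib (log2 change 1.04 ± 0.39, adjusted p = 0.0378), and the LSK minus MEP difference of 2.46 did not pass (adjusted p = 0.0528, edgeR).

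The transcript 3830403N18Rik (chrX:56136572-56153498) had 1 and 7 counts in the vehicle libraries and 5221, 4069 and 2754 counts in the ruxolitinib libraries, or 0.0351 and 0.255 CPM against 173, 136 and 125 CPM. It was near 0 in the vehicle libraries and abundant in every ruxolitinib library, and because of those few vehicle counts its fitted log2 change of 9.92 depends on the prior count (adjusted p = 8.62e-06, edgeR). Its levels in MEP cells were 158 to 195 CPM under ruxolitinib and 0 to 0.123 CPM in batch C vehicle. In LSK cells of batch A vehicle and of tamoxifen days 3 and 7 it did not exceed 0.8 CPM. It was the only gene called when the ruxolitinib change was compared with the tamoxifen day 7 change in LSK cells (0.00371% of genes tested).

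**Figure D1:**
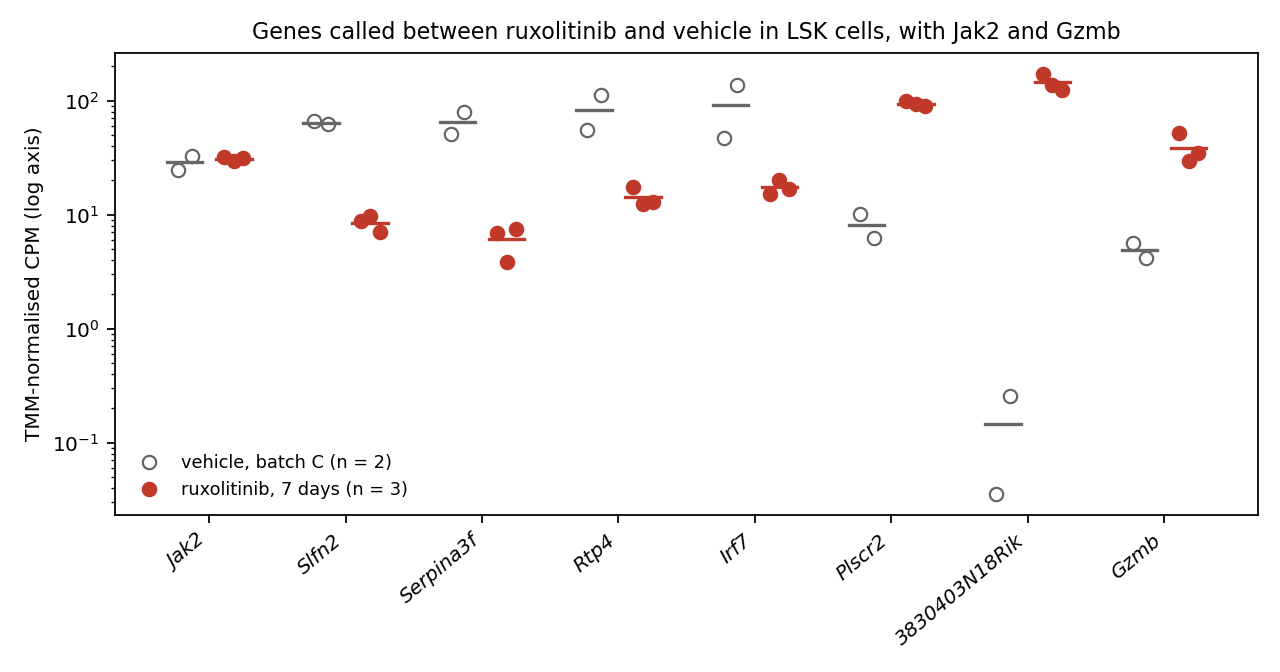
Levels of the 6 called genes, Jak2 and Gzmb in LSK cells, in TMM-normalised CPM on a log axis. Open circles are the 2 vehicle libraries of batch C, filled circles the 3 ruxolitinib libraries, and lines the group means; Slfn2, Serpina3f, Rtp4 and Irf7 lie lower under ruxolitinib without overlap, Plscr2, 3830403N18Rik and Gzmb higher, and Jak2 overlaps.

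Of the type I interferon-stimulated genes, 23 of 48 lay lower in every ruxolitinib library than in either vehicle library. Of the 48 members tested, 2 were called lower (Rtp4 and Irf7) and 0 higher, DESeq2 called 5 lower, and 16 were lower and 0 higher at an unadjusted p under 0.05. This pattern, in 47.9% of the members, was found in 12.3% of all genes and 4.89% of expressed genes, and above both for 2, against 8.46% and 13.8%. The list's median log2 change was -0.45, and its members ran from -2.54 to 0.68. Without vehicle 2 the median was -0.10, beside a median of 0.45 over expressed genes in the same setting, and without vehicle 1 it was -0.63 beside 0.06. With vehicle 1 alone as the reference, 24 of the 48 members lay below it in all 3 ruxolitinib libraries, against 44.7% of all and 12.2% of expressed genes, and 15 (31.2%) lay above it, against 30.3% and 64.4%. With vehicle 2 alone, 40 (83.3%) lay below and 2 above, against 26.3% of all and 32.8% of expressed genes below. The share of members below vehicle 1 alone (50%) was thus close to that of all genes tested and above that of expressed genes. Of the 48 members, 43 were expressed genes.

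The antiviral enzymes and regulators of the list, chosen here after their values were seen, show the range. Oas2, which makes the 2-5A messenger that activates RNase L, was at 23.2 and 47.8 CPM in vehicle and at 3.18, 4.38 and 11.9 CPM under ruxolitinib (log2 change -2.46 ± 0.49, adjusted p = 0.148). Usp18, the protease that removes ISG15 and damps the interferon receptor, was at 68.4 and 82.9 CPM and then 30.2, 27.5 and 28.0 CPM (-1.40 ± 0.29, adjusted p = 0.193). Irf9, the DNA-binding subunit of the type I interferon complex, was at 113 and 188 CPM and then 51.2, 56.0 and 63.9 CPM (-1.40 ± 0.33, adjusted p = 0.282). None of these passed edgeR's test, although their groups did not overlap. Ifit1, which binds foreign RNA and whose promoter is shown above, was at 16.1 and 34.9 CPM and then 1.79, 12.9 and 5.89 CPM. Ifit2, its neighbour in the same cluster, was the other way round, at 42.8 and 62.9 CPM in vehicle and 80.6, 92.1 and 80.8 CPM under ruxolitinib (0.68 ± 0.33, adjusted p = 0.559).

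The list of interferon gamma genes holds the guanylate-binding proteins (GBP) and the immunity-related GTPases (IRG), which act against intracellular pathogens. It also holds other genes, among them the serpin genes Serpina3f and Serpina3g. Of 41 members tested, 1 was called lower (Serpina3f) and 0 higher, DESeq2 called 4 lower, and 16 were lower and 0 higher at an unadjusted p under 0.05. The ruxolitinib libraries lay below both vehicle libraries for 17 members (41.5%), against 12.3% of all and 4.89% of expressed genes, and above both for 2, against 8.46% and 13.8%. With vehicle 1 alone 23 lay below it (56.1%) and 13 above (31.7%), against 44.7% and 30.3% of all genes. Of expressed genes 12.2% and 64.4% did. With vehicle 2 alone 28 lay below (68.3%), against 26.3% of all and 32.8% of expressed genes. The median was -0.78, and -0.56 and -0.59 without vehicle 1 and vehicle 2. Of members chosen after their values were seen, Gbp4 was at 28.7 and 16.02 CPM in vehicle and at 2.45, 4.88 and 4.85 CPM under ruxolitinib, and Gbp6 was at 20.6 and 13.7 CPM and then 1.72, 4.28 and 2.85 CPM. Both were higher in vehicle 1 than in vehicle 2, unlike Irf7 and Rtp4. The GTPase gene Tgtp1 was at 129 and 133 CPM and then 34.0, 32.8 and 35.7 CPM. Its near-identical copy Tgtp2 was at 361 and 379 CPM and then 137, 119 and 111 CPM. Irgm2 was at 111 and 125 CPM and then 41.3, 50.7 and 51.4 CPM. In these 3 GTPase genes the vehicle libraries were close to each other and all ruxolitinib libraries lay below them (adjusted p = 0.44, 0.434 and 0.348 in that order, edgeR).

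Some markers of other cell types were lower under ruxolitinib beside the interferon lists, whereas the sums over broader lists of the same cell types overlapped. The summed level of 6 macrophage markers was 129 and 95.5 CPM in vehicle and 23.5 to 64.4 CPM under ruxolitinib. That of 4 dendritic cell markers was 38.0 and 20.6 CPM against 11.8 to 16.6 CPM, and that of 5 T and NK cell markers 56.9 and 79.3 CPM against 39.9 to 49.8 CPM, most of it Lck, without which the sum was 6.89 and 4.51 CPM against 1.85 to 4.12 CPM. None of these markers was at 0 in any of the 5 libraries, and their part in the lower interferon genes was not tested. Over the broader macrophage list of 20 genes none was called, and 12 lay below both vehicle libraries (60%), against 12.3% of all and 4.89% of expressed genes, with a median of -1.02 that was -0.54 without vehicle 1 and -0.64 without ruxolitinib replicate 3. Its summed level nevertheless overlapped, at 527.9 and 970.1 CPM in vehicle and 1763.8, 1005.5 and 913.1 CPM under ruxolitinib. Most of that sum was Apoe, an apolipoprotein also made outside macrophages, at 183 and 651 CPM and then 1582, 772 and 758 CPM. The sum over 26 T and NK genes was 624.5 and 903.0 CPM in vehicle and 1566.6, 993.9 and 752.0 CPM under ruxolitinib, most of it the granule gene Nkg7. Marco, a scavenger receptor, was at 1.72 and 1.75 CPM in vehicle and 0.199 to 0.997 CPM under ruxolitinib. Vcam1, an adhesion molecule of marrow macrophages and stroma, was at 68.6 and 24.5 CPM and then 4.86 to 16.7 CPM (adjusted p = 0.578, edgeR). In LSK cells at tamoxifen day 7 the macrophage list of 20 genes had a median of -2.16, with 0 members called. The change of Vcam1 there was -2.54 (adjusted p = 0.408, edgeR).

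**Figure D2:**
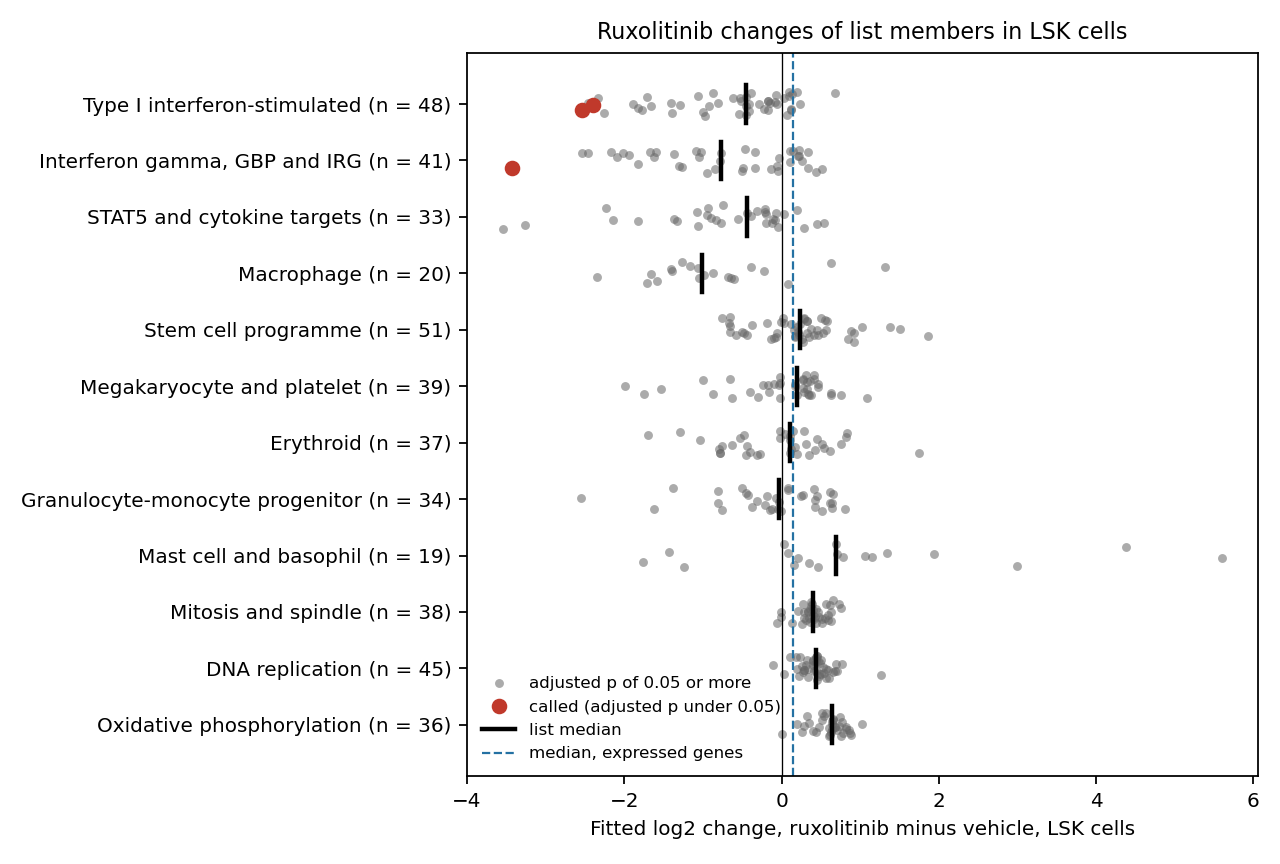
Fitted log2 changes (ruxolitinib minus vehicle, horizontal axis) of the tested members of 12 gene lists in LSK cells, 1 point per gene. Red points are called genes, black bars list medians and the dashed line the median of expressed genes (0.15); both interferon lists lie left of 0, with medians of -0.45 and -0.78, and the oxidative phosphorylation list lies right of it, at 0.64.

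The interferon lists were set beside the same genes in MEP cells under ruxolitinib and in LSK cells at tamoxifen day 7, where Cre has been activated to delete the mutant allele and no JAK inhibitor is given. In MEP cells 20 of the 48 type I members were called lower and 1 higher, with a median of -0.71, and 12 of the 41 interferon gamma members lower and 3 higher, with a median of -0.46. Of all genes tested in LSK cells, 31.5% were called lower and 2.84% higher in MEP cells, with a median of -1.04, and of expressed genes 9.23% and 6.88%, with a median of 0.21. Against all genes, the shares called lower in these lists did not stand out, and against expressed genes they were larger. None of the type I members differed between LSK and MEP cells in the test of the difference, and of the interferon gamma members Serpina3g alone did. At tamoxifen day 7, edgeR called 0 of the type I members in either direction, and their median was -0.03, beside -0.09 over all and -0.07 over expressed genes. In that comparison 0.0557% of all genes were called higher and 0.0483% lower, and of expressed genes 0.143% and 0.122%. Of the interferon gamma members, 3 were called lower there, Serpina3f, Gbp4 and Gbp6, with a median of -0.50. The differences between the ruxolitinib and tamoxifen changes were -2.11 for Irf7 and -2.46 for Rtp4 (log2; adjusted p = 0.733 and 0.301, edgeR), and no member of either list passed that test. The tamoxifen comparison uses the vehicle libraries of batch A.

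**Figure D3:**
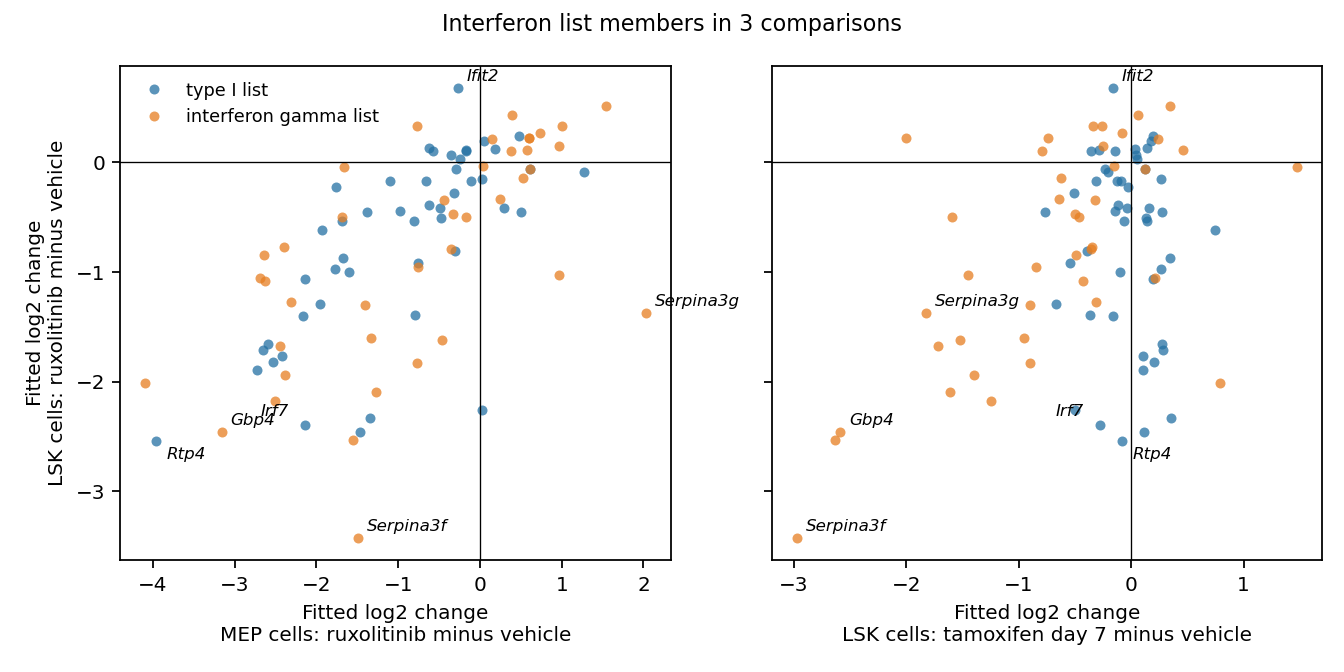
Fitted log2 changes of interferon list members in LSK cells under ruxolitinib (vertical axis) against MEP cells under ruxolitinib (left) and LSK cells at tamoxifen day 7 (right), 1 point per gene. Irf7 and Rtp4 lie low on both axes at the left and near 0 on the tamoxifen axis at the right, whereas Serpina3f and Gbp4 lie low on all 3.

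No STAT5 target was called by edgeR. Of 33 tested members of the STAT5 and cytokine list, edgeR called 0, DESeq2 called 1 lower, 8 were lower and 0 higher at an unadjusted p under 0.05, and 9 lay below both vehicle libraries (27.3%), against 12.3% of all and 4.89% of expressed genes, and 0 above both. The median was -0.44, beside 0.15 over expressed genes, and without vehicle 2 it was -0.06, beside 0.45. With vehicle 1 alone 14 members lay below it (42.4%) and 12 above (36.4%), shares close to the 44.7% and 30.3% of all genes, whereas of expressed genes 12.2% and 64.4% did. Socs2, a feedback inhibitor of cytokine receptors, was at 84.8 and 81.2 CPM in vehicle and at 39.8, 41.7 and 36.7 CPM under ruxolitinib. Both groups were tight and did not overlap, yet the change of -1.07 ± 0.31 did not pass (adjusted p = 0.434, edgeR). Cish, the feedback inhibitor whose promoter holds 2 STAT motifs, was at 18.4 and 33.7 CPM and then 6.39, 12.6 and 12.2 CPM (-1.32 ± 0.47, adjusted p = 0.514). The corresponding changes in MEP cells were -2.00 for Socs2 and -3.04 for Cish, both called, and neither difference between the cell types passed. In LSK cells at tamoxifen day 7 Socs2 was called lower (-1.68, adjusted p = 0.0219) and Cish was not called (-1.61, adjusted p = 0.116, edgeR). Of the 33 list members 2 were called lower there and 0 higher, against 0.122% and 0.143% of expressed genes. Their median was -0.67, beside -0.07 over expressed genes.

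The survival kinase gene Pim2 was at 101 and 499.9 CPM in vehicle and at 29.2, 28.4 and 19.7 CPM under ruxolitinib. Its relative Pim1 was at 5.34 and 24.0 CPM and then 3.87, 3.08 and 2.99 CPM, and Id1, an inhibitor of differentiation factors, at 6.96 and 3.89 CPM and then 1.75, 1.14 and 0.544 CPM. All 3 lay below both vehicle libraries and none passed (adjusted p = 0.379, 0.434 and 0.434, edgeR). For both Pim genes vehicle 2 was over 4 times vehicle 1. The feedback inhibitor Socs3, at 7.56 and 105 CPM and then 10.3, 4.45 and 2.85 CPM, overlapped, since vehicle 1 lay within the ruxolitinib range. The cytokine gene Osm (25.3 and 53.03, then 31.0, 25.8 and 23.3 CPM), the survival gene Bcl2l1 (84.2 and 116, then 107, 96.6 and 87.0 CPM) and the growth regulator Myc (474 and 1799, then 846, 580.2 and 490.1 CPM) overlapped as well. The cyclin gene Ccnd2 and the sialomucin gene Podxl had fitted changes of -0.07 and -0.21 with overlapping groups. Socs1 had 4 to 11 counts per library and was too low to test.

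**Figure D4:**
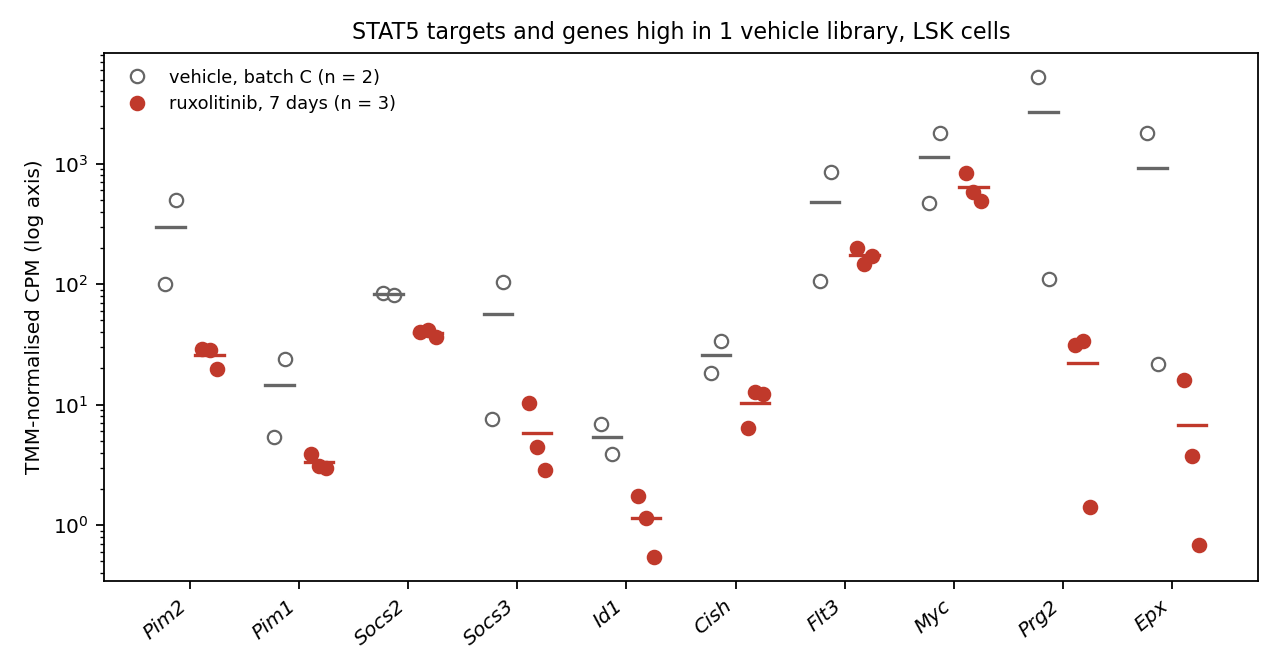
Levels of STAT5 targets and of genes high in 1 vehicle library, in TMM-normalised CPM on a log axis. Open circles are the vehicle libraries, filled circles the ruxolitinib libraries and lines the group means; Socs2, Pim1, Pim2, Id1 and Cish lie lower without overlap, and the vehicle circles of Pim2, Socs3, Flt3, Myc, Prg2 and Epx are far apart.

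Neither the JAK-STAT kinases and factors nor the cytokine receptors had a called member. Of the 21 kinases and factors, edgeR and DESeq2 called 0 and 1 was lower at an unadjusted p under 0.05, with a median of 0.08 that was -0.40 without vehicle 1 and 0.48 without vehicle 2. The adaptor gene Grb2 was at 21.4 and 32.4 CPM in vehicle and 31.1 to 51.7 CPM under ruxolitinib. Of 30 receptors, both tools called 0, and 2 were lower at an unadjusted p under 0.05. Below both vehicle libraries lay 5 (16.7%), near the 12.3% of all genes and above the 4.89% of expressed genes. Above both lay 0, against 8.46% and 13.8%. With vehicle 1 alone 7 lay below it (23.3%) and 17 above (56.7%), against 12.2% and 64.4% of expressed genes. The median of -0.07 was -0.23 without vehicle 1 and 0.72 without vehicle 2. Il7r, the interleukin 7 receptor of lymphoid progenitors, was at 7.03 and 8.48 CPM and then 1.92, 1.80 and 2.13 CPM, and Il6ra, the interleukin 6 receptor, at 9.28 and 6.84 CPM and then 2.58, 2.21 and 4.17 CPM. Both were lower in all 3 libraries with adjusted p of 0.49.

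Several genes of mast cell granules lay higher in every ruxolitinib library than in either vehicle library. Gzmb, a granule protease that the mast cell list shares with the T and NK cell list, was at 5.59 and 4.15 CPM in vehicle and at 51.8, 29.5 and 34.9 CPM under ruxolitinib. The groups did not overlap, and the change of 2.99 ± 0.51 missed the threshold (adjusted p = 0.0514, edgeR) while DESeq2 called it. Cma1, mast cell chymase, was at 1.69 and 1.49 CPM and then 128, 38.1 and 66.5 CPM (5.60 ± 1.31, adjusted p = 0.282). Of genes chosen after their values were seen, Cpa3, mast cell carboxypeptidase, was at 49.1 and 65.3 CPM and then 328, 155 and 177 CPM, and Tpsb2, a mast cell tryptase, at 2.99 and 1.09 CPM and then 93.8, 8.22 and 25.5 CPM. In each of these, ruxolitinib replicate 1 was the highest library and all 3 lay above both vehicle libraries. Of 19 list members, edgeR called 0 and DESeq2 3 higher, 6 were higher and 1 lower at an unadjusted p under 0.05, and 7 lay above both vehicle libraries (36.8%), against 8.46% of all and 13.8% of expressed genes. Against vehicle 1 alone, 13 of the 19 (68.4%) lay above it, near the 64.4% of expressed genes. The list's median was 0.70, and 0.90 with either vehicle library left out. The summed level of the 4 mast cell and basophil markers was 149.99 and 227 CPM in vehicle and 294 to 574 CPM under ruxolitinib, but without Cpa3 the other 3 overlapped, at 101 and 162 CPM and then 246, 172 and 116 CPM.

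The same protease genes were compared in the other groups. Gzmb in LSK cells was at 18.6 to 46.5 CPM at tamoxifen day 7 and 3.29 to 9.60 CPM in batch A vehicle (log2 change 2.34, called), and in MEP cells at 1.15 to 8.75 CPM under ruxolitinib and 0.326 to 0.617 CPM in vehicle (3.19, called). Cma1 was at 64.9 to 245 CPM in LSK cells at tamoxifen day 7 and 0.522 to 25.4 CPM in batch A vehicle. It differed between the cell types, with an LSK minus MEP difference of 6.44 ± 1.32 (adjusted p = 0.0222, edgeR). Cpa3 rose in MEP cells as well (log2 change 4.49, adjusted p = 5.57e-06), while Tpsb2 did not pass there (-3.61, adjusted p = 0.158, edgeR). Their LSK minus MEP differences did not pass (adjusted p = 0.0942 and 0.085, edgeR). In LSK cells at tamoxifen day 7 their changes were 1.81 and 3.50, and neither was called (adjusted p = 0.0758 and 0.156, edgeR). Klrd1, a natural killer receptor, had 31 and 8 counts in vehicle and 1 to 3 counts under ruxolitinib. Clec11a, a growth factor of blood and bone cells that was chosen after its values were seen, was at 7.91 and 7.24 CPM in vehicle and at 87.8, 73.3 and 94.0 CPM under ruxolitinib (3.49 ± 0.87, adjusted p = 0.335). It did not exceed 19.9 CPM in batch A vehicle or at tamoxifen days 3 and 7, and in MEP cells it was at 20.5 to 31.9 CPM under ruxolitinib against 0.84 to 2.35 CPM in vehicle (4.12, adjusted p = 0.000162).

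No gene of the stem cell programme was called by edgeR. Of its 51 members, edgeR called 0 and DESeq2 1 higher, 3 were higher and 0 lower at an unadjusted p under 0.05, and 13 lay above both vehicle libraries (25.5%), against 8.46% of all and 13.8% of expressed genes, and 3 below both. With vehicle 1 alone 37 lay above it (72.5%) and 3 below (5.88%). Of expressed genes 64.4% and 12.2% did, and of all genes 30.3% and 44.7%. With vehicle 2 alone 16 lay above (31.4%) and 19 below (37.3%). Of expressed genes 19.0% and 32.8% did, and of all genes 15.5% and 26.3%. The direction thus depends on the vehicle library, in this list as over expressed genes. The median was 0.23, beside 0.15 over expressed genes. It was -0.09 without vehicle 1 and 0.64 without vehicle 2, beside 0.06 and 0.45 over expressed genes. Clec1a was at 17.2 and 3.75 CPM in vehicle and at 30.6, 39.2 and 44.5 CPM under ruxolitinib, and Aldh1a1, a retinaldehyde dehydrogenase, at 85.0 and 53.1 CPM and then 185, 208 and 147 CPM. The groups did not overlap in either gene, with adjusted p of 0.434 and 0.49. Slamf1, the stem cell marker CD150, was at 50.5 and 40.3 CPM and then 64.8, 63.4 and 70.6 CPM. Ly6a, the Sca1 antigen used in the sort and itself an interferon-inducible gene, was at 102 and 204 CPM and then 95.6, 66.3 and 63.9 CPM (-1.03 ± 0.49, adjusted p = 0.559).

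Of 30 stem and progenitor surface markers, both tools called 0 and 2 were lower at an unadjusted p under 0.05. Ly6d, a marker of lymphoid progenitors, was at 2.92 and 9.32 CPM in vehicle and 1.27 to 1.63 CPM under ruxolitinib. Flt3, the receptor of multipotent and lymphoid-primed progenitors, was at 107 and 858 CPM and then 201, 148 and 171 CPM, so that vehicle 1 lay below and vehicle 2 above all ruxolitinib libraries. Kit, the stem cell factor receptor, was at 514 and 1286 CPM and then 1284, 1713 and 1425 CPM. Cd48 (211 and 391, then 546, 257 and 203 CPM) and Procr (27.7 and 50.4, then 35.1, 55.5 and 40.6 CPM) overlapped between groups.

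Lineage genes had no called member. Of 39 megakaryocyte and platelet genes, edgeR and DESeq2 called 0 and 3 were lower at an unadjusted p under 0.05, with a median of 0.19. Timp3, an inhibitor of metalloproteinases, was at 33.3 and 25.0 CPM in vehicle and 6.92, 7.99 and 11.2 CPM under ruxolitinib, and Thbs1, thrombospondin, at 10.6 and 14.2 CPM and then 2.75, 2.84 and 3.76 CPM. Of 37 erythroid genes both tools called 0 and 2 were lower at an unadjusted p under 0.05, with a median of 0.11 that was -0.22 without vehicle 1 and 0.52 without vehicle 2. Tfrc, the transferrin receptor that brings iron into the cell, was at 254 and 195 CPM and then 76.1, 87.0 and 44.6 CPM (-1.70 ± 0.40, adjusted p = 0.282), and Ank1, ankyrin of the red cell skeleton, at 13.7 and 15.8 CPM and then 3.24, 8.69 and 9.74 CPM. Gata1, the master factor of the lineage and chosen after its values were seen, was at 134 and 209 CPM and then 253, 206 and 179 CPM and overlapped. At tamoxifen day 7 Tfrc was called lower (log2 change -1.89), as it was in MEP cells under ruxolitinib (-1.54).

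Of 34 granulocyte and monocyte progenitor genes both tools called 0 and 2 were lower at an unadjusted p under 0.05, with a median of -0.04 that was -0.24 without vehicle 1 and 0.61 without vehicle 2. Cd33 was at 7.34 and 21.4 CPM in vehicle and 3.11, 0.869 and 3.40 CPM under ruxolitinib, and Irf8, a factor of monocyte and dendritic cell fate that interferon gamma induces, at 95.7 and 284 CPM and then 87.8, 47.3 and 49.9 CPM. Mpo, myeloperoxidase, chosen after its values were seen, was at 943 and 3751 CPM and then 5402, 3194 and 2231 CPM and overlapped. Of 9 eosinophil genes edgeR called 0 and DESeq2 2 lower. Their levels were highest in vehicle 1: Ear6 was at 176 and 1.86 CPM in vehicle and 0.132 to 1.77 CPM under ruxolitinib, Ear1 at 58.1 and 0.473 CPM and then 0.0906 to 0.827 CPM, and the list's median of -6.03 was -0.43 without vehicle 1.

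Genes of cell division and respiration often lay higher in every ruxolitinib library, and none was called. Of 38 mitosis genes 21 lay above both vehicle libraries (55.3%) and 0 below both, and of 45 DNA replication genes 23 (51.1%) and 0, against 13.8% and 4.89% of expressed genes. The medians were 0.41 and 0.44, and 1 and 5 members were higher at an unadjusted p under 0.05. With vehicle 1 alone 68.4% of the mitosis genes lay above it, near the 64.4% of expressed genes, and their median of 0.38 lay under that of expressed genes (0.45). With vehicle 2 alone 76.3% did, against 19.0%. Without ruxolitinib replicate 1 the medians were 0.23 and 0.29, and without replicate 3 they were 0.68 and 0.69. Of the 45 DNA replication genes, 36 lay above vehicle 1 alone and 28 above vehicle 2 alone (62.2%). The proliferation marker Mki67 was at 263 and 239 CPM in vehicle and 444, 390 and 352 CPM under ruxolitinib, and the kinetochore gene Ndc80 at 83.6 and 94.7 CPM and then 152, 126 and 133 CPM. Tk1, thymidine kinase, was at 171 and 184 CPM and then 349, 289 and 229.8 CPM, and Fen1, the flap endonuclease, at 2.67 and 4.37 CPM and then 10.9, 6.68 and 7.88 CPM. In each of these 4 genes ruxolitinib replicate 1 was the highest library, and the adjusted p ran from 0.539 to 0.559 (edgeR). Of 36 oxidative phosphorylation genes 20 lay above both vehicle libraries (55.6%) and 0 below, 10 were higher at an unadjusted p under 0.05, and the median of 0.64 was 0.37 without ruxolitinib replicate 1 and 0.96 without replicate 3, beside 0.07 and 0.35 over expressed genes. Ndufa3, a subunit of complex I, was at 93.8 and 146 CPM in vehicle and 321, 208 and 204 CPM under ruxolitinib, and Uqcr10, of complex III, at 139 and 193 CPM and then 402, 260 and 241 CPM. Neither edgeR nor DESeq2 called a member of these 3 lists.

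**Figure D5:**
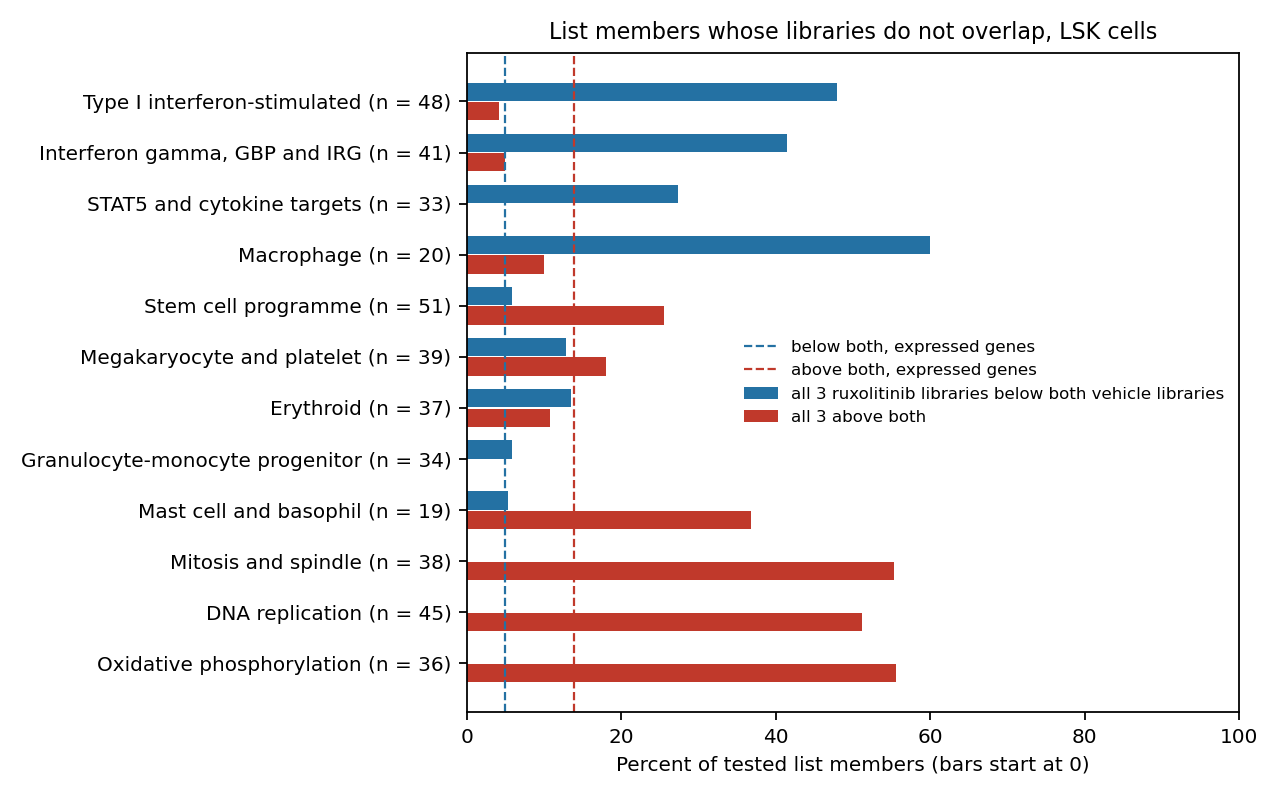
Percent of tested members of 12 lists whose 3 ruxolitinib libraries all lay below (blue) or all above (red) both vehicle libraries in LSK cells; bars start at 0 and dashed lines give the same shares over expressed genes, 4.89% and 13.8%. Among the lists plotted, the blue bars of the interferon, STAT5 and macrophage lists reach 27.3% to 60% and the red bars of the mitosis, DNA replication and oxidative phosphorylation lists 51.1% to 55.6%; eosinophil genes (55.6% below), T and NK genes (34.6%), dendritic cell genes (31.2%) and lymphoid and B lineage genes (31.0%) are not plotted.

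The change under ruxolitinib was compared between LSK and MEP cells in a fit of all 32 libraries. In it, LSK and MEP libraries that carry the same number, and may come from the same animal, counted as independent. Of 28378 genes, edgeR called 83 (0.292%), 48 with the higher change in LSK (0.169%) and 35 with the lower (0.123%). This count ran from 0 without LSK vehicle replicate 2 to 1047 without LSK ruxolitinib replicate 1. Among the genes with the smallest p were the platelet integrin Itga2b, the lysozyme gene Lyz2, the adhesion receptor gene Eltd1, Cyth4 and Fxyd5, whose LSK changes of -0.40 to 0.52 did not pass while they rose in MEP cells by 2.96 to 4.48 (log2). The LSK minus MEP differences were -3.45 ± 0.57 for Itga2b, -3.75 ± 0.65 for Lyz2 and -4.56 ± 0.74 for Eltd1 (adjusted p = 0.00418, 0.00824 and 0.00418, edgeR). Itga2b was at 525 and 794 CPM in LSK vehicle and 908, 743 and 744 CPM under ruxolitinib. Cobll1 went the other way, with a difference of 3.30 ± 0.53 (adjusted p = 0.00418). It was at 9.24 and 10.1 CPM in LSK vehicle and 12.2, 18.8 and 16.9 CPM under ruxolitinib. Its LSK change of 0.73 did not pass (adjusted p = 0.542), while in MEP cells it fell (log2 change -2.58, adjusted p = 3.9e-05, edgeR). The stem cell markers Cd34 and Meis1 and the myeloid gene Mpo were also among the called genes, chosen after their values were seen. Cd34 was at 611 and 1317 CPM in LSK vehicle and 932 to 1425 CPM under ruxolitinib, and in MEP cells at 0.56 to 3.54 CPM and 19.4 to 70.9 CPM.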

How the data were processed

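LSK and MEP cells were sorted into TriZOL; the Direct-Zol kit (RNA isolation) and the Takara HT-Seq kit (paired-end libraries) followed, per the labels' protocols. The authors deposited raw gene counts for 32 libraries, made with STAR and featureCounts on mm10, per the submitters' processing notes; no source used here gives their versions, the annotation or the strand setting. Of 33924 genes, 933 had no count in any library. Groups were taken from the labels.

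From the deposited counts, edgeR 4.0.16 (R 4.3.3) fitted group means to the 16 LSK libraries with TMM factors, after filterByExpr with a minimum count of 10, which left 26930 genes. Its quasi-likelihood test compared LSK ruxolitinib with LSK vehicle of batch C, with Benjamini-Hochberg adjustment over all genes and a threshold of 0.05. Another fit of all 32 libraries (28378 genes) tested the LSK minus MEP difference. LSK and MEP libraries with the same number may come from the same animal, and this fit treated them as independent. Standard errors were derived from the fitted change and the F statistic. Total counts of the 5 libraries were 26511752 to 49657790. The scripts were tested on simulated data. Alternatives were RLE factors, other count filters, the 5 libraries alone, a replicate block, pooled vehicle batches, DESeq2 1.42.0, limma 3.58.1 with voom, and each replicate left out. The no-overlap counts without a vehicle library were added after seeing the data.

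Named genes were Jak2, called genes without library overlap and with a mean log2 CPM of at least 2 (unnamed transcripts passed over), a panel of cytokine and stem cell genes, called members of each list or otherwise up to 2 with the smallest p, and up to 6 called genes of each test of a difference. The members and lists were chosen with earlier results of these data known. The labels do not say that libraries came from separate mice, so p-values measure the spread between these libraries, which may be technical. Replicate numbers are shared by only 2 libraries of each group and were used as names, not as pairs; with the number as a random block (consensus correlation 0.457), voom called 9 genes. Gene positions are those of GENCODE M21. A few results are not reported here.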

Additional observations from a re-analysis of the deposited data

Results flagged for a closer look

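The ruxolitinib change differed between LSK and MEP cells for 13 named genes in the test of the difference itself (edgeR's quasi-likelihood test, log2 change in LSK minus that in MEP). For Slfn2 the difference was -3.32 (adjusted p = 0.0165), for Serpina3g -3.42 (adjusted p = 0.0439), and for Timp3 -3.34 (adjusted p = 0.0432). The mast cell gene Cma1 differed by 6.44 (adjusted p = 0.0222) and Cobll1 by 3.30 (adjusted p = 0.00418). Genes called higher under ruxolitinib in MEP cells and not called in LSK cells gave -4.56 for Eltd1, -3.45 for Itga2b (both adjusted p = 0.00418), -3.75 for Lyz2 (adjusted p = 0.00824), -3.38 for Cyth4 and -3.81 for Fxyd5. Cd34, Meis1 and Mpo gave -4.43, -2.76 and -4.58. None of the 83 calls of this test was made without LSK vehicle replicate 2, where edgeR called 0 genes. For 3830403N18Rik, the ruxolitinib change in LSK cells exceeded the tamoxifen day 7 change by 10.38 (adjusted p = 4.48e-05), and this call rests on a transcript with 1 and 7 counts in the vehicle libraries.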

How the results depend on the processing

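With 2 vehicle libraries that differ from each other, the number of called genes moved with the setting. Against 6 called genes (2 higher, 4 lower), there were 14 (4 and 10) with no count filter, 9 (1 and 8) among expressed genes only, 11 (5 and 6) in the 5 libraries alone, 8 (4 and 4) with RLE factors, and 140 (62 and 78) with DESeq2. Pooling the vehicle batches gave 1413 (553 and 860), where batch and treatment are not separated. The replicate block gave 6 (2 and 4), of which 4 were shared with the 6; Irf7 and Rtp4 lost the call. Irf7 also lost it with RLE factors and in the 5 libraries alone, and Plscr2 among expressed genes only. Leaving out each replicate gave 2 to 4 called genes, 1 to 2 higher and 1 to 3 lower, the fewest without vehicle replicate 2. A lone vehicle library was then assumed to vary like the other groups. The LSK minus MEP test called 83 genes, 158 (125 higher) with no filter and 0 to 1047 with a replicate left out (0 to 956 higher, 0 to 125 lower): 1047, 32 and 8 without ruxolitinib replicates 1, 2 and 3, and 600 and 0 without vehicle replicates 1 and 2. The test against tamoxifen day 7 called 1 gene, 2 (1 lower) with no filter and 1 to 2 with a replicate left out (1 to 2 higher, 0 to 1 lower).

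Of 989 values of 77 named genes, 881 kept direction and side of the threshold, 52 gained the call, 23 lost it and 33 reversed; the cause was not tested. Jak2 was -0.077 and Cd48 -0.040 among expressed genes. With RLE factors, DESeq2 and pooled vehicles, Bcl2l1 was 0.043, 0.044 and 0.18, Ccnd2 0.026, 0.027 and 0.23, and Eltd1 0.042, 0.044 and 0.066, and Podxl was 0.41 with pooled vehicles. With the replicate block Ccnd2 was 0.051 and Eltd1 0.23, and with voom 0.11 and 0.19. With a replicate left out, the lowest and highest values were -0.89 and 0.079 for Osm, -0.17 and 0.20 for Bcl2l1, -1.38 and 0.43 for Myc, -0.13 and 0.16 for Ccnd2, -0.37 and 0.018 for Podxl, -2.21 and 0.70 for Flt3, -0.13 and 0.66 for Procr, -0.39 and 0.67 for Cd48, -0.23 and 0.30 for Eltd1, -0.68 and 0.12 for Cyth4, and -0.068 and 0.94 for Cd34. Leaving out vehicle replicates 1 and 2 set both ends of these ranges for Osm, Bcl2l1, Myc, Flt3, Procr, Eltd1, Cyth4 and Cd34.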
